A study of Mus musculus with 27 samples.

Results

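The 9 genes described here encode enzymes of the brush border, the microvillus-covered apical membrane of the absorptive enterocyte: intestinal alkaline phosphatase (Alpi) and the peptidases Mep1a, Mep1b, Anpep, Enpep, Dpep1, Dpp4, Ace and Xpnpep2. They were picked by symbol, and each symbol matched 1 entry among 27316 in the mouse table, 1 among 23597 in the organoid table and 1 among 27179 in the tumour table. RNA-seq was performed on 27 libraries of mouse intestine in 9 groups of 3, to compare intestines with and without Taf4, which encodes a component of TFIID, a general transcription complex. The 4 mouse and 3 organoid groups are labelled as strain C57Bl6/129sv.

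Embryonic intestine was sampled at E17.5, and adult ileum at 8 weeks according to the labels, each as a control (WT) and a Taf4 knockout (KO) group. In the study, knockouts carry floxed Taf4 (Taf4lox/lox) and Cre under the villin promoter, which is active in the intestinal epithelium: VilCre in embryos, and the tamoxifen-dependent VilCreERT2 in adults. Controls are Taf4lox/lox without Cre, littermates in the case of embryos. The labels give sunflower oil for the WT and tamoxifen for the KO groups at both stages, whereas the methods give tamoxifen to adult controls too. Which of these holds for the libraries is not known, and where the labels hold, treatment cannot be told apart from genotype. Ileal organoids, epithelial cultures started from crypts, form a control group (ethanol in the labels, 4-OHT-treated Taf4lox/lox cultures without Cre in the methods), a group of Taf4lox/lox VilCreERT2 cultures treated with 4-hydroxytamoxifen (4-OHT), the drug that activates CreERT2 (1 µM for 3 days, stated in the labels for replicates 2 and 3), and a group given 4-OHT and 1 µM EPZ-6438, which blocks Ezh2, the methyltransferase of Polycomb Repressive Complex 2, and kept ex vivo for 11 days in the labels (longer in the methods, which place the other organoids at day 3). Which control treatment holds for the organoid libraries is not known, and where the labels hold, 4-OHT itself and loss of Taf4 cannot be told apart. Inhibitor and time in culture differ together in the group given EPZ-6438, and their parts cannot be told apart. Tumours of the adult ileum were driven by deletion of Apc exon 14 (ApcΔ14) in mice of a mixed 129SV and C57Bl/6 background, either Taf4+/+ or Taf4 KO in the labels, and in the methods the latter carry VilCreERT2, activated by tamoxifen, and mice of both groups received tamoxifen. In the methods the replicates are 3 embryos or adult mice per group and 3 culture wells per organoid group. For tumours, the only libraries tested here, the sources used here do not say whether each came from its own mouse, so the p-values cover the spread between these libraries only.

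Dietary protein is cut by gastric and pancreatic proteases, and the oligopeptides that result are trimmed at the enterocyte surface by brush border peptidases before uptake by peptide and amino acid transporters. Each enzyme has its own end of the chain or bond: aminopeptidases remove residues from the amino terminus, Ace removes a dipeptide from the carboxyl terminus, dipeptidases split what remains, and meprins cut inside chains. Intestinal alkaline phosphatase removes phosphate from nucleotides and from bacterial lipopolysaccharide and is the classical marker of the differentiated villus enterocyte, as its messenger is made when cells leave the crypt.

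In the NCBIM37 (mm9) build, with GENCODE annotation, Alpi lies at chr1:88994579-88998181 with 11 exons, Mep1a at chr17:43611273-43639761, Anpep at chr7:86966689-86993096, Enpep at chr3:128972093-129035638, Dpep1 at chr8:125710135-125725710, Dpp4 at chr2:62168130-62250288, Ace at chr11:105829259-105851278 and Xpnpep2 at chrX:45461902-45490158. No 2 of the 9 share a chromosome, and all are protein-coding genes whose reads were summed over exons. Dpep1 overlaps another annotated gene on the same strand (Gm20388), and Mep1b, Dpp4 and Ace each overlap 1 on the opposite strand. In the methods, which do not name tumours there, reads that could not be assigned to a single gene were discarded. Whether strand was used in counting is not given in the sources used here, so reads in those overlaps may have been left out.

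The promoter search did not include Mep1b, so nothing is said here of its promoter. Promoter windows from RefSeq (GRCm38.p6, 250 bases before to 50 after the annotated start) were taken for 8 of the 9 genes. These made 9 windows, since Ace has a pair of starts. They are shown for Alpi and Ace, whose means were the only ones lower in adult than in embryonic controls, for Mep1a, the gene that differed most in tumours, and for Enpep, which differed least in the knockout mice and most in organoids. Capitals mark every match on either strand to 5 motifs: the TATA box, searched as TATAAA, and the motifs of HNF4, HNF1, CDX and GATA factors, all of them families of transcription factors active in enterocytes.
Alpi (chr1:87101557-87101856, minus strand): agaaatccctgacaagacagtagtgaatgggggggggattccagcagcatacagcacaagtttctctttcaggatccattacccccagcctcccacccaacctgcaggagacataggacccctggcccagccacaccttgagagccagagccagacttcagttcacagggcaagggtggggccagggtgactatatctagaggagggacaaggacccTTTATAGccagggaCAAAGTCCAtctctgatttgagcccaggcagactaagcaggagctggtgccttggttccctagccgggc
Ace (chr11:105967698-105967997, plus strand, the upstream start): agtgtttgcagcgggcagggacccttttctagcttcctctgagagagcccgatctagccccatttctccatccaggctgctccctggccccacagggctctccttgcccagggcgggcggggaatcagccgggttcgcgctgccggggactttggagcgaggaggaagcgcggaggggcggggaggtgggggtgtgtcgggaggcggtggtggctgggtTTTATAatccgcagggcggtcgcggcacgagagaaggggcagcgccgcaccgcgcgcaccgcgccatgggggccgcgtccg
Mep1a (chr17:43502724-43503023, minus strand): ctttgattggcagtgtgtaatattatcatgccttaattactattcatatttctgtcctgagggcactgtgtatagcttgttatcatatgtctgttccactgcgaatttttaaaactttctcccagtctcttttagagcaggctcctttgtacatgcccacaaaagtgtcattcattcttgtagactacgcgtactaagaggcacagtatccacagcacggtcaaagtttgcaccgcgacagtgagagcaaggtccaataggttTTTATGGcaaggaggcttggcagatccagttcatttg
Enpep (chr3:129332700-129332999, minus strand): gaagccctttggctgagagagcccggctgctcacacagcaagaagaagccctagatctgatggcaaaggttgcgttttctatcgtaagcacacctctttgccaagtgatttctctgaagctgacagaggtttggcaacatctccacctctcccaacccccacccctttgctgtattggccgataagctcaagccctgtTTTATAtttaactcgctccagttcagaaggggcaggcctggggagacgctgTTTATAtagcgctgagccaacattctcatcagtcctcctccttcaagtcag

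Of these windows, that of Alpi held the most motifs. It had a TATA box on the reverse strand 33 bases before the start, overlapped by a match to the CDX motif, searched as CNATAAA, at the same place, and a match to the HNF4 motif, CAAAGTCCA, 19 bases before the start, a motif that 0.475% of all 32817 windows of this length contain. The Ace window had a TATA box 31 bases before the start and that of Enpep had TATA boxes 52 bases and 1 base before it, where 13.6% of all windows hold at least 1. Mep1a had a CDX match only, 14 bases after the start (10.9% of all windows hold that motif). The Dpp4 window held an overlapping TATA box and CDX match that begins 228 bases before the start, and the windows of Anpep, Dpep1 and Xpnpep2 and the second window of Ace held no match to these letters. The HNF1 motif and that of GATA factors, searched as AGATAAG, present in 0.399% and 3.05% of all windows, were found in none of the 9. Matches of letters are given as descriptions and say nothing of binding.

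For mice and organoids the deposited values are group means of normalized read counts, 1 per gene and group, each over 3 libraries by the labels. The values of single libraries were not analysed here, so the means are given with no spread and no test. Ratios of means are on the log2 scale with a pseudocount of 1, and a gene is counted as past 2-fold when its log2 ratio is beyond 1 in either direction, beside the percentage of all genes with a mean of at least 10 in the higher group that do the same. These counts and folds describe group means and are not calls. In bulk tissue, fewer enterocytes and less RNA per enterocyte cannot be told apart. The means sum to between 11.9 and 16.6 M per group and the tumour libraries hold between 22.9 and 39.1 M recovered reads. The level of the targeted gene ran against the labels, as it was not lower but higher in the KO groups of mice and tumours and in 4-OHT organoids. Whether reads from exons outside the deleted part account for this was not tested, as no values per exon were analysed. The knockout is therefore taken here from the labels and the paper. The paper reports almost complete loss of Taf4 protein in KO embryos at E17.5, and shows Taf4 staining of adult intestine and of tumours. The authors' mean for Taf4a was 226 in control and 299.5 in KO embryos, 373 and 494.0 in adults, 264, 286 and 201 in control, 4-OHT and 4-OHT + EPZ-6438 organoids, and Taf4 had 11.1 ± 0.481 FPKM in Apc and 13.5 ± 0.457 FPKM in Taf4-KO Apc tumours (SD, n = 3).

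The control groups were first compared between stages, embryonic intestine against adult ileum. Alpi and Ace, the carboxypeptidase that also makes angiotensin II, had higher means before birth. The authors' mean for Alpi was 7457 normalized counts in control embryos and 2976 in control adults (log2 ratio -1.32). For Ace it was 6812 and 1842, 3.70-fold lower. The other 7 genes had the opposite order. Xpnpep2, the membrane-bound aminopeptidase P that removes a residue standing before proline, had means of 184 in embryos and 3329 in adults (18.0-fold). Dpep1, a dipeptidase that also cleaves leukotriene D4, had 425 and 5424 (12.7-fold). Anpep, or aminopeptidase N, which releases neutral residues, had 7720 and 63210 (8.19-fold).

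Smaller ratios separated the stages for the rest. Mep1b, the meprin beta subunit, encoded on chromosome 18, had means of 1806 in control embryos and 14440 in control adults (7.99-fold), and Mep1a, the meprin alpha subunit, 4184 and 14030 (3.35-fold). Enpep, or aminopeptidase A, which releases acidic residues, had 5809 and 26300 (4.53-fold). Dpp4, which removes dipeptides ending in proline or alanine and inactivates incretins, had 7184 and 26140 (3.64-fold). Past 2-fold were thus 7 genes higher and 2 lower in adults, where 18.3% of 17381 genes were past 2-fold higher and 15.2% lower (of the genes past 2-fold, 54.6% were higher as deposited and 39.4% with the groups scaled to equal totals). Together the 9 genes took 0.317% of the table total in control embryos and 0.951% in control adults.

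Epithelial markers moved with these ratios, and their part in them was not tested. The summed mean of 12 epithelial markers (Epcam, Cdh1, keratins and others) was 83650 in control embryos and 245500 in control adults, with none at 0, and 11 of the 12 passed the minimum, with a median log2 ratio of 1.51, against 2.18 for the 9 genes. Set against the median epithelial marker, 4 of the 7 remained past 2-fold higher (Xpnpep2, Dpep1, Anpep and Mep1b), and Alpi and Ace stood at log2 ratios of -2.84 and -3.40. This scaling moved the median of all genes to -1.50, with 71.8% of genes past 2-fold lower and 7.24% higher. The immune list had sums of 1156 and 2867, with Cd3e, Cd79a and Cd8a among the markers under 10 in embryos. The embryonic intestine and the adult ileum also differ in region, and region and age cannot be told apart.

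**Figure D1:**
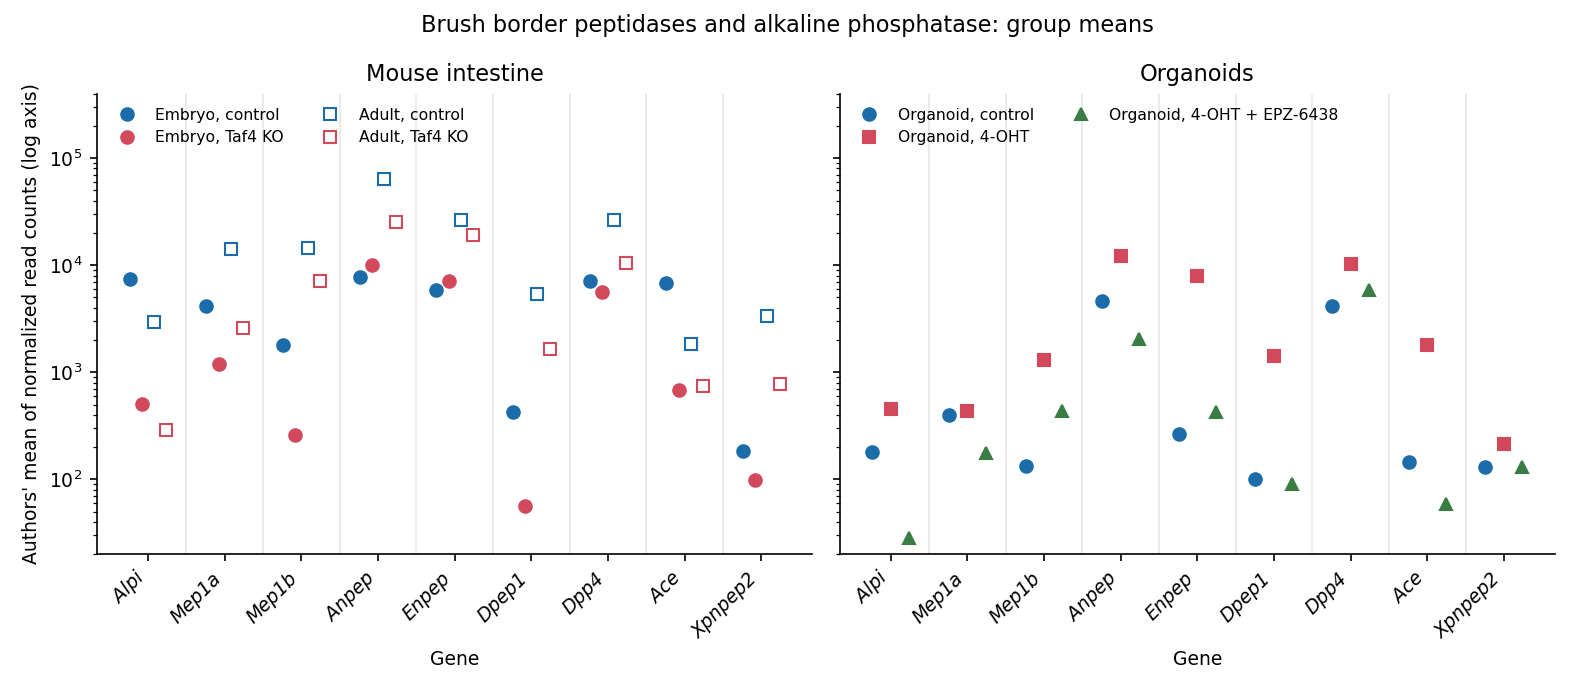
Authors' mean of normalized read counts (log axis) for each of the 9 genes, in mouse intestine (left: circles, embryo; open squares, adult; blue, control; red, Taf4 KO) and in organoids (right: blue circles, control; red squares, 4-OHT; green triangles, 4-OHT + EPZ-6438). Each point is 1 group mean with no spread available; in adults the KO mean lies below the control mean for all 9 genes, and in organoids the 4-OHT mean is the highest of the 3 for all 9.

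In E17.5 intestine the 9 genes did not share 1 direction between KO and control. Alpi, the phosphatase, had the largest ratio: its mean was 509 in KO and 7457 in control embryos, 14.6-fold lower, and 0.5% of the 16484 genes compared had a lower ratio. Ace followed with 690 and 6812 (9.86-fold lower). These are also the genes whose means were higher in embryonic than in adult controls, a comparison that shares the control embryos with this one.

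Both meprin subunits and the dipeptidase were lower as well. Dpep1 had means of 56.6 in KO and 425 in control embryos (7.39-fold), Mep1b 261 and 1806 (6.90-fold) and Mep1a 1203 and 4184 (3.48-fold). The remaining 4 genes stayed under 2-fold. Xpnpep2 had 98.5 and 184 (log2 ratio -0.90) and Dpp4 5567 and 7184 (-0.37).

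The aminopeptidases N and A had higher, not lower, means in the knockout. Anpep had 10060 in KO and 7720 in control embryos, and Enpep 7090 and 5809, log2 ratios of 0.38 and 0.29. In all, 5 of 9 genes were past 2-fold lower and 0 past 2-fold higher, where 8.32% of all genes were lower and 2.16% higher (7.12% and 3.34% at equal totals), and the median log2 ratio was -1.80 for the 9 genes and 0.04 for all genes.

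Markers of other cells moved with this comparison. The 11 epithelial markers above the minimum all had ratios below 0 (median -0.44), and their list's summed mean was 83650 in control and 50840 in KO embryos. The 10 fibroblast and smooth muscle markers all had ratios above 0 (median 0.64), with sums of 123800 and 211600, and those of endothelium and pericytes had sums of 2551 and 3312. Immune markers had sums of 1156 and 508, and the 6 above the minimum all had ratios below 0, with Csf1r, a macrophage receptor, 3.24-fold lower. Crypt and stem markers had sums of 8470 and 9527, with 1 of 8 below 0, Olfm4, a stem cell gene, at 20.9-fold lower. Relative to the median epithelial marker the same 5 genes stayed past 2-fold lower (log2 ratios from -3.43 for Alpi to -1.36 for Mep1a), Anpep and Enpep stood at 0.82 and 0.72, and Dpp4 stood at 0.07. On this scale the median of all genes was 0.47, with 4.82% past 2-fold lower and 10.1% higher. The part of the other cell types was not tested.

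Among other surface hydrolases of a list of 18, 12 were above the minimum, and 7 of these were past 2-fold lower and 0 higher. The largest ratios were those of Enpp7, the alkaline sphingomyelinase (9.24 and 577, 56.5-fold lower), Mme, or neprilysin, another peptidase (110 and 1175, 10.6-fold), the ectonucleotidase Enpp3 (120 and 1190, 9.87-fold) and Ggt1, a gamma-glutamyltransferase (521 and 4167, 7.99-fold). The other alkaline phosphatase above the minimum, the tissue-nonspecific Alpl, stood on the opposite side of Alpi, with means of 178 in KO and 83.2 in control embryos. Of 16 genes for microvillus structure 10 were past 2-fold lower, led by the motor Myo1a (7.92-fold), and of 10 transporters for peptides and amino acids 5 were, led by Slc6a19 (8.61-fold). Rbp2, Apoa4 and the rest of 10 other enterocyte genes had a median log2 ratio of -2.05, with 7 past 2-fold lower.

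In the adult ileum all 9 genes had lower means in KO than in control mice. Alpi again had the largest ratio, with means of 292 and 2976, 10.2-fold lower. Mep1a had 2586 and 14030 (5.42-fold), Xpnpep2 772 and 3329 (4.31-fold) and Dpep1 1645 and 5424 (3.30-fold).

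Anpep, slightly higher in KO embryos, was 2.52-fold lower in KO adults, with means of 25070 and 63210. Ace had 739 and 1842 (2.49-fold), Dpp4 10570 and 26140 (2.47-fold) and Mep1b 7050 and 14440 (2.05-fold). Enpep alone stayed under 2-fold, at 19220 and 26300 (log2 ratio -0.45). Past 2-fold lower were 8 of 9 genes, where 6.58% of 16748 genes were and 3.58% were past 2-fold higher (4.93% and 4.54% at equal totals, where Mep1b no longer passed and 7 did).

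Among markers in adults, 10 other enterocyte genes had sums of 165800 in control and 111500 in KO mice, with 5 past 2-fold lower and 1 higher. The 8 crypt and stem markers had sums of 16150 and 9903 and a median log2 ratio of -0.22. Only Olfm4 among them was past 2-fold, at 3.33-fold lower. Epithelial markers differed less: 7 of the 11 above the minimum had ratios below 0, with a median of -0.11, and the list's sums were 245500 in control and 265800 in KO adults. The fibroblast and smooth muscle sums were 53560 and 43300, the endothelial 3608 and 2610 and the immune 2867 and 2339. Their part in the result was not tested. Relative to the median epithelial marker Alpi stood at -3.24 and Enpep at -0.34.

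Of the other 12 hydrolases above the minimum, 6 were past 2-fold lower in KO adults and 2 higher, the lowest being Mme (32.6 and 668.5, 19.9-fold), Enpp7 (6.63 and 121, 16.0-fold) and trehalase, Treh (30.6 and 500.0, 15.8-fold). Microvillus genes past 2-fold lower numbered 7 of 16, with Pdzk1, a scaffold protein, at 83.2 and 939 (11.2-fold), and those for uptake 4 of 10, with the peptide transporter Slc15a1 at 440.1 and 1741 (3.95-fold). Alpl had means of 190 and 113, and Alppl2 10.7 and 7.43, neither past 2-fold.

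Between the stages within the knockouts, Dpep1 was 28.6-fold, Mep1b 26.9-fold and Xpnpep2 7.77-fold higher in adult than in embryonic KO intestine, Ace differed by 1.07-fold, and Alpi was 1.74-fold lower. Past 2-fold higher were 6 genes and lower 0, where 19.1% and 17.2% of 17312 genes were. At equal totals 5 genes were higher, without Mep1a (0.80), and 1 lower, Alpi (-1.10), where 15.1% and 23.4% of genes were. Relative to the epithelial markers 3 genes were higher and 2 lower, where 6.20% and 75.2% of genes were. These 4 mouse comparisons share groups with each other, so their ratios are not independent and are given side by side only. The order of the 4 means was control embryo, control adult, KO embryo, KO adult for Alpi, from high to low. For Mep1a it was control adult, control embryo, KO adult, KO embryo, and Mep1b, Anpep, Enpep, Dpep1, Dpp4 and Xpnpep2 had both adult means above both embryonic means.

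**Figure D2:**
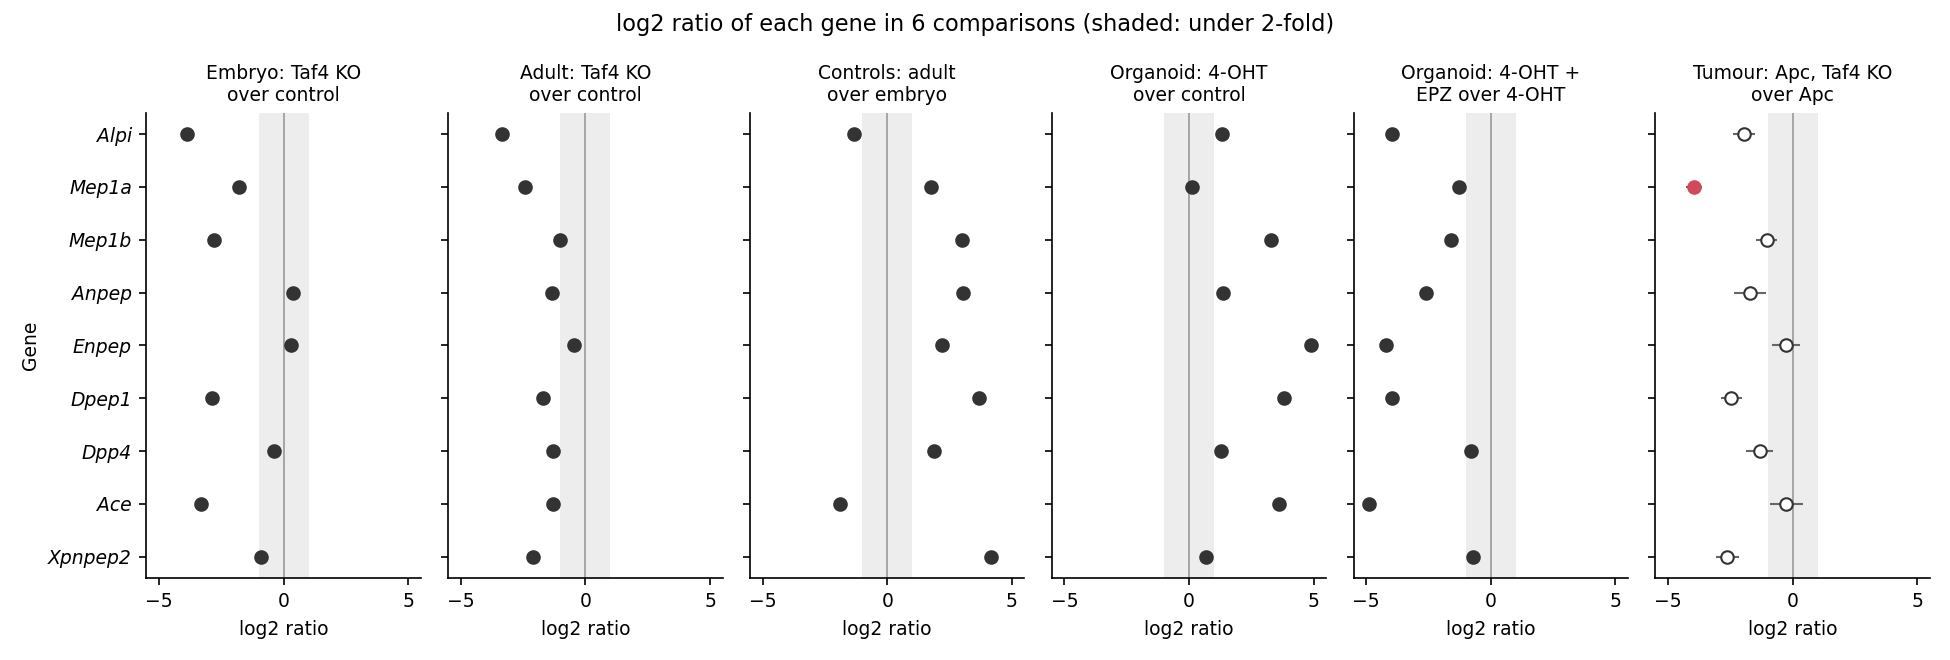
log2 ratio of each gene (rows) in 6 comparisons (panels), with the range under 2-fold shaded. The first 5 panels are ratios of group means with no error available, and the last is the limma log2 fold change in tumours with its standard error, filled red where called. Alpi lies at -3.87 in embryos and -3.35 in adults, Enpep at 4.88 with 4-OHT in organoids, and Mep1a at -3.97 in tumours.

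In organoids all 9 means lay on the opposite side from those of KO adults. In the 4-OHT group every gene had a higher mean than in control organoids. Enpep had 266 normalized counts in control and 7848 in 4-OHT organoids, 29.4-fold higher, and 99.8% of the 13929 genes compared had a lower ratio. Dpep1 had 100.4 and 1412 (13.9-fold), Ace 144.5 and 1786 (12.3-fold) and Mep1b 133 and 1311 (9.75-fold).

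The rest differed less. Anpep had 4634 and 12100 (2.61-fold), Alpi 182 and 453 (2.48-fold) and Dpp4 4181 and 10230 (2.45-fold). Xpnpep2, with 131 and 212, and Mep1a, with 397 and 432, were under 2-fold at log2 ratios of 0.70 and 0.12, and Mep1a stood at 0.00 at equal totals and -0.14 relative to the epithelial markers, scalings that moved the median of all genes to -0.12 and -0.26. Past 2-fold higher were 7 of 9, where 11.9% of all genes were higher and 11.3% lower.

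The meprin subunits thus had unlike ratios in each setting. Mep1b was 6.90-fold lower and Mep1a 3.48-fold lower in KO embryos, Mep1a 5.42-fold and Mep1b 2.05-fold lower in KO adults, and Mep1b 9.75-fold and Mep1a 1.09-fold higher with 4-OHT. The Ezh2 inhibitor group had means on the other side for every gene. Against 4-OHT alone, Ace was 29.7-fold lower (59.2 and 1786), Enpep 18.6-fold (422 and 7848), Alpi 15.5-fold (28.3 and 453) and Dpep1 15.4-fold (90.6 and 1412). Anpep was 5.97-fold lower (2025 and 12100), Mep1b 3.01-fold (435.0 and 1311) and Mep1a 2.44-fold (176 and 432), while Dpp4 (5862 and 10230) and Xpnpep2 (129 and 212) were under 2-fold. That made 7 of 9 past 2-fold lower, where 18.0% of 14109 genes were lower and 17.2% higher. Both comparisons share the 4-OHT group, so a 4-OHT mean off to 1 side would move them in opposite directions.

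Set against control organoids instead, which the 4-OHT group does not enter, the inhibitor group had 4 genes past 2-fold lower and 1 higher, where 13.3% and 12.4% of 14001 genes were (18.1% and 9.05% at equal totals). Alpi was 6.22-fold lower, Ace 2.42-fold, Anpep 2.29-fold and Mep1a 2.25-fold, and Mep1b was 3.24-fold higher. Relative to the epithelial markers 2 of the 4 remained, Alpi and Ace, where 9.42% of genes were lower and 18.3% higher. Dpep1 and Xpnpep2, at 1.11-fold and 1.01-fold, were near their control means. The 9 genes took 0.0727% of the total in control, 0.235% in 4-OHT and 0.0570% in 4-OHT + EPZ-6438 organoids.

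Markers of crypt cells and of mature enterocytes differed between these groups too. The summed mean of 8 crypt and stem markers was 36200 in control, 9764 in 4-OHT and 26880 in 4-OHT + EPZ-6438 organoids, and that of 10 other enterocyte genes 56620, 506400 and 70920. All 10 of the latter and 7 of the former were past 2-fold with 4-OHT, higher and lower respectively, with Fabp1 26.0-fold higher and Olfm4 32.3-fold lower. The part of these cell types was not tested. All 10 other hydrolases above the minimum were past 2-fold higher, among them lactase, Lct (6486 and 673, 9.63-fold), and sucrase-isomaltase, Sis (23280 and 2834, 8.21-fold). Fibroblast lists were at sums of 71.4, 69.8 and 38.8, endothelial ones at 17.7, 38.7 and 65.4 and immune ones at 16.2, 105 and 42.4. Under a mean of 10 were 8 or 9 of 10, 5 or 6 of 7, and 8 of 9 of these markers in each group, the immune exception being Itgam, with means of 12.1 in control and 91.9 in 4-OHT organoids.

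Tumours are the only samples with a value for each library, as FPKM (fragments per kilobase of transcript, scaled to library depth). The third library of Taf4-KO Apc tumours carries a name that joins those of the first and second. It lay between those 2 libraries for 63.4% of 13794 genes and for 9 of 9 genes here, where any other library lay between its partners for 16.5% to 40.2% of genes. The labels do not say whether it is a pool of both, in which case the group would hold 2 independent tumours, so results without it are also given. Apc replicate 1 stood apart by its immune markers, whose summed FPKM was 179 there and 18.8 to 33.7 in the other 5 libraries.

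Mep1a showed the largest difference in tumours. It had 146, 88.9 and 58.6 FPKM in Apc tumours and 5.53, 4.46 and 4.73 FPKM in Taf4-KO Apc tumours, from 4717 to 16751 and from 363 to 423 reads. The groups were far apart and the 3 knockout values lay close together. By limma on log2(FPKM + 1) with Benjamini-Hochberg adjustment over all 13794 genes, Mep1a fell by 3.97 on the log2 scale (SE 0.32, 15.7-fold, adjusted p = 0.022, n = 3), lower in 3 of 3 knockout libraries. It was the only gene of the 9 called at an adjusted p under 0.05 past 2-fold, where 0.478% of all genes were called lower and 0.138% higher. None was called higher, by limma or by voom on recovered reads, and at an unadjusted p under 0.05 6 were lower and 0 higher, where 6.96% and 20.0% of all genes were. Leaving out 1 library at a time kept the log2 fold change between -4.29 and -3.64, but the call was lost without Apc replicate 2 (adjusted p = 0.058) and without Taf4-KO replicate 1 (0.10), replicate 2 (0.073) or replicate 3 (0.20).

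Mep1b, its partner subunit, had 378, 290 and 290 FPKM in Apc tumours and 80.9, 270 and 165 FPKM in Taf4-KO tumours. Those groups did not overlap, but the second knockout library came close to the control values (log2 fold change -1.04, SE 0.43, limma adjusted p = 0.19). The ratio of Mep1a to Mep1b, both per length, was 0.387, 0.307 and 0.202 in Apc and 0.0684, 0.0165 and 0.0287 in Taf4-KO tumours, 9.04-fold lower by the mean of its logarithm, with a two-sided exact permutation p = 0.10, the smallest that 3 against 3 can give. That test counts Taf4-KO replicate 3 as an independent library, and no version without it was made. It adds no support beyond the Mep1a values, which enter the ratio.

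Xpnpep2 had 68.7, 38.4 and 25.8 FPKM in Apc and 3.28, 9.69 and 5.72 FPKM in Taf4-KO tumours (log2 fold change -2.63, SE 0.46, limma adjusted p = 0.056). Dpep1 had 120, 109 and 64.2 FPKM in Apc and 9.23, 27.2 and 17.3 FPKM in Taf4-KO tumours (-2.46, SE 0.42, adjusted p = 0.055). Both aminopeptidase P and the dipeptidase were lower in every knockout library and just missed the threshold. They passed it with a minimum of 5 FPKM (adjusted p = 0.045 and 0.044) and with a spread fitted as a trend on the level (0.048 and 0.046), and missed it by voom (0.060 and 0.058), with each other pseudocount and scaling and with any 1 library left out (adjusted p from 0.059 to 0.28 over those fits for both).

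Alpi had 82.1, 176 and 108 FPKM in Apc tumours and 16.2, 49.3 and 30.4 FPKM in Taf4-KO tumours (-1.96, SE 0.45, limma adjusted p = 0.086), with groups that did not overlap. Anpep, the most abundant of the 9 per length, had 1070, 782 and 597 FPKM in Apc and 89.0, 534 and 287 FPKM in Taf4-KO tumours (-1.72, SE 0.65, adjusted p = 0.16). Anpep in knockout replicate 2 lay just under the lowest control, and replicate 1 was far below it.

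Dpp4, Enpep and Ace overlapped between the groups. Dpp4 had 44.3, 41.7 and 28.5 FPKM in Apc and 5.79, 30.6 and 16.1 FPKM in Taf4-KO tumours (-1.32, SE 0.55, limma adjusted p = 0.19). Enpep had 183, 82.7 and 87.8 FPKM against 42.1, 176 and 101 FPKM (-0.27, SE 0.57, adjusted p = 0.77), and Ace 46.1, 118 and 41.6 FPKM against 21.4, 106 and 56.6 FPKM (-0.26, SE 0.66, adjusted p = 0.81). For Enpep and Ace the sign turned when 1 library was left out: Enpep stood at 0.09 without Apc replicate 1 and 0.28 without Taf4-KO replicate 1, and Ace at 0.21 without Apc replicate 2 and 0.34 without Taf4-KO replicate 1.

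**Figure D3:**
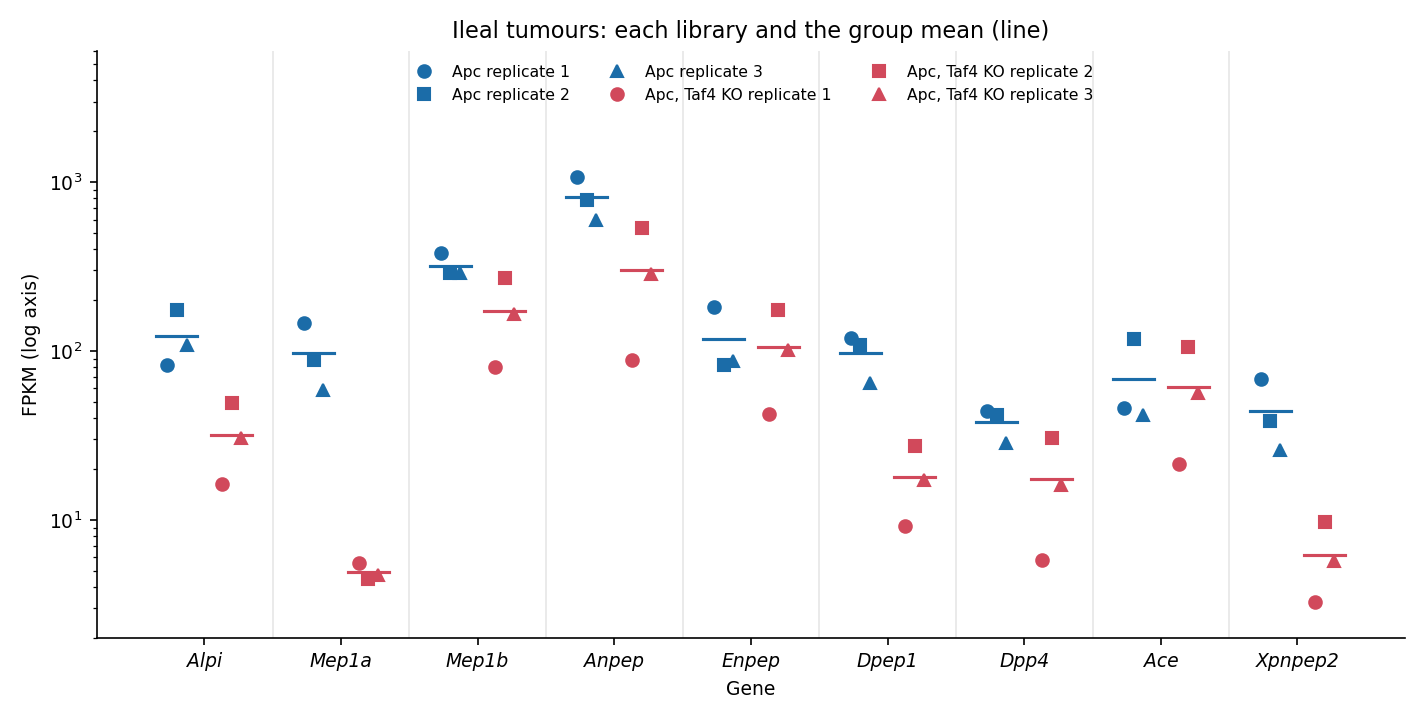
FPKM (log axis) of the 9 genes in each of the 6 ileal tumour libraries, blue for Apc and red for Taf4-KO Apc, with the mean of each group as a line. Mep1a sits between 58.6 and 146 in Apc and between 4.46 and 5.53 in Taf4-KO tumours, and Taf4-KO replicate 1 is the lowest library for every other gene.

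In all, 6 of the 9 genes had every knockout library below every Apc library, where 8.50% of all genes did and 26.9% had the reverse. Without replicate 3 of the knockout none was called, and 5 of these 6, all but Mep1a, had limma adjusted p-values from 0.28 to 0.40. The median log2 fold change of the 9 was -1.72, against 0.14 for all genes. Taf4-KO replicate 1 had the lowest sum of the 9 (273 FPKM, against 1207 and 684 in replicates 2 and 3 and 1302 to 2133 in Apc tumours). It also had the lowest sum of 10 other enterocyte genes (1954 FPKM, against 4960 to 8019 in the other knockout libraries and 4077 to 13980 in Apc tumours), while the 12 epithelial markers ranged from 7452 to 8621 in Taf4-KO and from 8160 to 11580 in Apc tumours, with none at 0. Mep1a was the exception to this order, with its highest knockout value in that library. The fibroblast and smooth muscle sum ranged from 181 to 556 FPKM in Apc and from 222 to 292 FPKM in Taf4-KO tumours, and the crypt and stem sum from 253 to 451 and from 330 to 366. Without Apc replicate 1, the library rich in immune markers, Mep1a was still called (log2 fold change -3.64, adjusted p = 0.0097). The part of the other cell types in these differences was not tested.

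**Figure D4:**
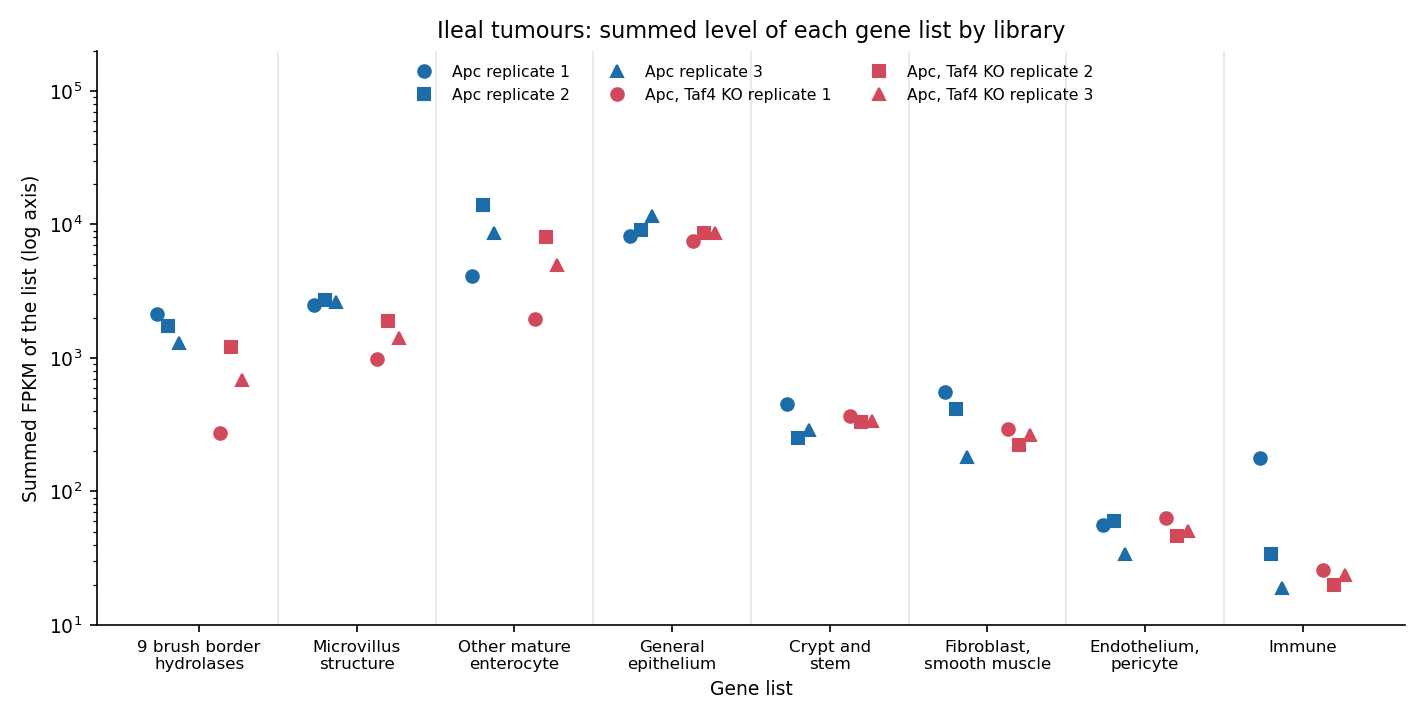
Summed FPKM (log axis) of the 9 brush border hydrolases and of 7 marker lists in each tumour library, blue for Apc and red for Taf4-KO Apc. The sum of the 9 spans 273 to 1207 in Taf4-KO and 1302 to 2133 in Apc tumours, the epithelial sum spans 7452 to 11580 over all 6, and the immune sum reaches 179 in Apc replicate 1.

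Genes of the surrounding lists were called in small numbers in tumours. Of 16 microvillus genes 3 were called lower by limma and 0 higher, where 0.478% and 0.138% of all genes were. For 11 of the 16 every knockout library lay below every Apc library, where 8.50% of all genes did so. Among the 3 called, Tmigd1, an adhesion molecule of the enterocyte surface, fell by 4.51 (from 76.9 to 135 FPKM in Apc and from 2.26 to 4.90 FPKM in Taf4-KO tumours, adjusted p = 0.013), Pdzk1 by 1.87 (adjusted p = 0.048) and Mall by 1.54 (adjusted p = 0.043). Of 13 other hydrolases tested 1 was called, and it was higher: carboxypeptidase M, Cpm, had 5.75, 6.54 and 5.45 FPKM in Apc and 28.8, 17.7 and 22.4 FPKM in Taf4-KO tumours (log2 fold change 1.77, SE 0.19, adjusted p = 0.029). Enpp7 had the largest difference of that list without being called (-3.66, SE 0.70, adjusted p = 0.065). None of 10 uptake transporters or 16 enterocyte transcription factors was called, by limma or by voom. At an unadjusted limma p under 0.05 2 transporters were lower and 2 transcription factors higher, where 6.96% of all genes were lower and 20.0% higher. With Taf4-KO replicate 2 or 3 left out 0 genes of the whole table were called, and without replicate 1 2 were called lower and 0 higher.

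Levels were compared over 13 values per gene, the 4 mouse and 3 organoid means and the 6 tumour libraries, as log2(value + 1) centred within each table. They share groups, libraries and normalization, so the correlations are descriptions only. Dpep1 followed the mean of the other 8 most closely (Pearson r = 0.945), then Dpp4 (0.895) and Anpep (0.878), and Ace least (0.525), with Alpi next (0.60). The pair most alike was Dpep1 with Mep1b (r = 0.93), Alpi was most like Ace (0.82), and Ace and Xpnpep2 were least alike (0.16). Among 8585 genes with enough signal, those most like Alpi outside the list were Eps8l3 (0.958), Slc46a3 (0.955), Cyp2d26 (0.954), Mme (0.942), Ghdc (0.933) and Asah2 (0.932), and those most like the mean of the 9 were Iqgap2 (0.989), 2010106E10Rik (0.974), Slc7a9 (0.969), Pls1 (0.968), Cdhr2 (0.964) and Fam78a (0.962).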

How the data were processed

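Reads were trimmed with cutadapt 1.10, cleared of ribosomal RNA with Bowtie2 2.2.8 and aligned with STAR 2.5.3a by the authors, to mm9 in the methods (tumours list mm9 and mm10, and the annotation behind their lengths is not given in the sources used here). Labels name a stranded poly(A) kit and the methods an amplifying kit. The authors deposited, for mice and organoids, group means of normalized counts (a signal scaled by median of ratios), and for tumours FPKM per library. Deposited fold changes and adjusted p-values of the authors' own comparisons (by DESeq2) stand beside them and were not used.

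Members, lists, tests and motifs were chosen with earlier results of these data known. All 9 genes are named, and of each list at most 4 genes with the largest ratio. Tumours were tested with limma 3.58.1 (R 4.3.3) on log2(FPKM + 1), two-sided, over 13794 genes whose mean reached 1 FPKM in either group. On simulated data the fit recovered the fold changes put in. The simulated libraries were independent and had less spread than the 9 genes had here, so this is a check of the code only. Reads were recovered from FPKM, with 98.96% of values whole within 0.001. Alternatives were equal totals, scaling to epithelial markers or the upper quartile, other pseudocounts and minimums, a trend, voom, a replicate block and leaving out each library. Python 3.11.15 was used otherwise.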

Additional observations from a re-analysis of the deposited data

How the results depend on the processing

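Counts of the 9 genes past 2-fold kept within 1.5 times their value under a pseudocount of 10, no minimum or a minimum of 100 in each of the 7 comparisons of means. Relative to general epithelium markers they became 4 higher for control adults against embryos, 3 higher and 2 lower for KO adults against embryos, and 2 lower for 4-OHT + EPZ-6438 against control, and equal totals gave 1 lower for KO adults against embryos. Of the 6 genes past 2-fold higher in that KO comparison, Mep1a, Anpep and Enpep changed sign relative to epithelium, to -0.63, -0.42 and -0.30. Dpp4 and Ace, with log2 ratios of 0.92 and 0.10 as deposited, changed sign as well. That scaling moved the median of all genes from 0.04 to -1.69. Equal totals moved the median of all genes to between -0.33 and 0.18.

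In tumours, 1 gene called lower became 3 with a minimum of 5 FPKM, 3 with a trend, and 0 to 1 when 1 library was left out. Enpep then ranged from -0.74 to 0.28 and Ace from -0.79 to 0.34. Over all genes, 66 were called lower and 19 higher, which became 42 and 44 higher with pseudocounts of 0.1 and 0.01, 105 lower with a minimum of 5 FPKM, 7 higher relative to epithelium, 110 and 30 with a trend, 23 and 5 with voom, and 0 to 146 and 0 to 34 with 1 library left out. Replicate numbers did not pair the libraries (r between same-numbered libraries -0.20 to -0.04), and with the replicate as a block 0 of the 9 were called (Mep1a adjusted p = 0.16) and over all genes 1 was called lower and 0 higher. Values of single libraries behind the group means were not analysed here. With 3 tumour libraries per group, and fewer independent tumours if Taf4-KO replicate 3 is a pool, a change near 2-fold can be missed.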
